A study of Mus musculus with 6 samples.

Results

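The forkhead (Fox) genes encode transcription factors that share a DNA-binding domain, the forkhead box. They were taken from a gene expression table of mouse pharyngeal arch tissue by symbol alone, as every Fox gene of the subfamilies a to s, with antisense transcripts left out. This gave 30 of the 14647 genes in the table. They were sorted by where they are best known to act: 2 *Foxa* genes of the endoderm, 7 *Foxc*, *Foxd* and *Foxf* genes of mesenchyme, 8 widely expressed *Foxk*, *Foxo* and *Foxp* genes, and 13 genes of other subfamilies. In *Pax9*-null embryos *Foxp4*, *Foxk1* and *Foxm1* fell and *Foxn2* rose, by the test described below. None of the endoderm and mesenchyme genes passed it. These 4 stood among 29 forkhead genes tested, a smaller share than the 26.7% of all genes that passed. With trends in transcript length and GC content removed, only *Foxn2* still passed.

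Forkhead proteins bind DNA through a winged-helix fold. FoxA proteins can bind closed chromatin and help to specify endoderm. FoxC, FoxD and FoxF proteins act in mesenchyme, where *Foxc1* and *Foxc2* are needed for the aortic arch and outflow tract and *Foxf1* is a target of hedgehog signals from endoderm. FoxO proteins are held out of the nucleus when insulin and AKT signalling is active, FoxK proteins repress autophagy genes, and FoxP proteins are repressors that dimerize. FoxM1 drives genes of mitosis.

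RNA was sequenced from the pharyngeal arch region of 3 *Pax9*-null (*Pax9*-/-) and 3 wild-type embryos at E9.5, with 1 library per embryo and both sexes included. *Pax9* encodes a paired-box factor of the pharyngeal endoderm, and the mutant embryos lacked it throughout the body, in mice kept on a C57Bl/6J background. The pharyngeal region was dissected from below the first arch to the base of the heart. The question was which genes respond when *Pax9* is lost. Values are log2 RPKM, in which reads are scaled to transcript length and library size, so that levels of different genes can be compared. Genes were tested with limma, a linear model whose variance is shared between genes, when their mean over the 6 libraries was at least 0.5 RPKM, and genes with a Benjamini-Hochberg adjusted *P* of at most 0.1 over all 13547 tested genes were called changed. A fold change below 0 on the log2 scale means a lower level in null embryos.

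The libraries held 11676946 to 12705808 reads on listed genes. *Pax9* itself was at 40.1% of the wild-type level (log2 fold change −1.32, SE 0.19, limma adjusted *P* of 0.0155), with 37 to 43 reads in the null and 99 to 123 in the wild-type libraries. The part of the gene that the null allele lacks is not given in the sources used here, so the remaining reads were not placed against it. Of the marker genes fixed for 9 cell types (pharyngeal endoderm, neural crest mesenchyme, endothelium, heart muscle, smooth muscle, blood, neural tube, somite and surface ectoderm), all but *Nkx2-1*, *Uncx*, *Myh11* and *Krt14* had a row in the table, and none was at 0 reads in all libraries. In such bulk tissue, fewer cells of a type and less RNA per cell cannot be told apart. Libraries differed in their make-up. The summed level of 6 heart muscle markers was 69.5 RPKM in wild-type replicate 3 against 1024 to 1367 RPKM in the other libraries. That of 3 smooth muscle markers was 50.5 RPKM in the same library against 217 to 289 RPKM in the others. The sum of 6 endothelial markers was 91.3 RPKM in wild-type replicate 1 against 43.4 to 58.9 RPKM elsewhere. For 6 blood markers it was 2568 to 4747 RPKM in the null against 2331 to 2418 RPKM in the wild-type libraries. The part of these differences in the forkhead values was not tested.

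Of the 30 genes, 17 had a promoter in the RefSeq table of GRCm38.p6 used here, with 21 promoters in all. No promoter of *Foxk1*, *Foxm1* or *Foxn2* was in that table. Stretches of 100 bases before a RefSeq start of 4 genes are printed 5′ to 3′ on the strand of the gene. That of *Foxa1* precedes an internal start and lies within the longer span of the gene in GENCODE M21. They were chosen to show the promoter of the called gene that had one (*Foxp4*), its widely expressed relative *Foxk2*, and the promoters that held a forkhead motif (*Foxa1*) or a core of the Pax1 and Pax9 binding site (*Foxd3*). Capitals mark CCAAT boxes, which are named after their letters, GC boxes, which were searched as GGGCGG in full, forkhead motifs, which were searched as TGTTTAC in full, and Pax cores, which were searched as CGTCACGC in full. Each was searched on both strands, and none of these matches overlap in the stretches shown.
*Foxp4*, chr17:47924646-47924745, minus strand: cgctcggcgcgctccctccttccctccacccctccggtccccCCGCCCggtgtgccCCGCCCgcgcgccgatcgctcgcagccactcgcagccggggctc
*Foxk2*, chr11:121259828-121259927, plus strand: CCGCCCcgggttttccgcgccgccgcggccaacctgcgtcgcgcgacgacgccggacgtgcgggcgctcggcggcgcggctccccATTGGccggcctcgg
*Foxa1*, chr12:57546169-57546268, minus strand: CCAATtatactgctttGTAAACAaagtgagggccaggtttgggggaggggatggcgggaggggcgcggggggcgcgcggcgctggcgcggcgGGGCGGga
*Foxd3*, chr4:99656069-99656168, plus strand: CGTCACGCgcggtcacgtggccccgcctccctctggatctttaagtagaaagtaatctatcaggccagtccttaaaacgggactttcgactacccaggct
In promoters of 300 bases, 250 before and 50 after the start, a GC box stood in 18 of the 21 forkhead promoters and in 35.7% of all 32851 promoters. The CCAAT box stood in 8 of the 21 and in 37.4% of all, the forkhead motif in 1 and 3.65%, and the Pax core in 1 and 0.679%. Median GC content was 65.7% in the forkhead promoters and 52.7% in all, with a median of 26 against 7 CpG sites. These are matches of letters only.

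Over all genes tested, 26.7% were called changed, 14.7% higher and 12.0% lower in null embryos. Of the 30 forkhead genes, 29 were tested. Of the 29, 4 were called, 1 higher and 3 lower, 13 lay above and 16 below wild-type, and the median log2 fold change was −0.12, against −0.0012 over all genes. In 7 of the 29 the libraries of the genotypes did not overlap, 2 higher and 5 lower, where this held for 41.9% of all genes tested. Both shares were smaller in the forkhead genes than in all genes.

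**Figure D1:**
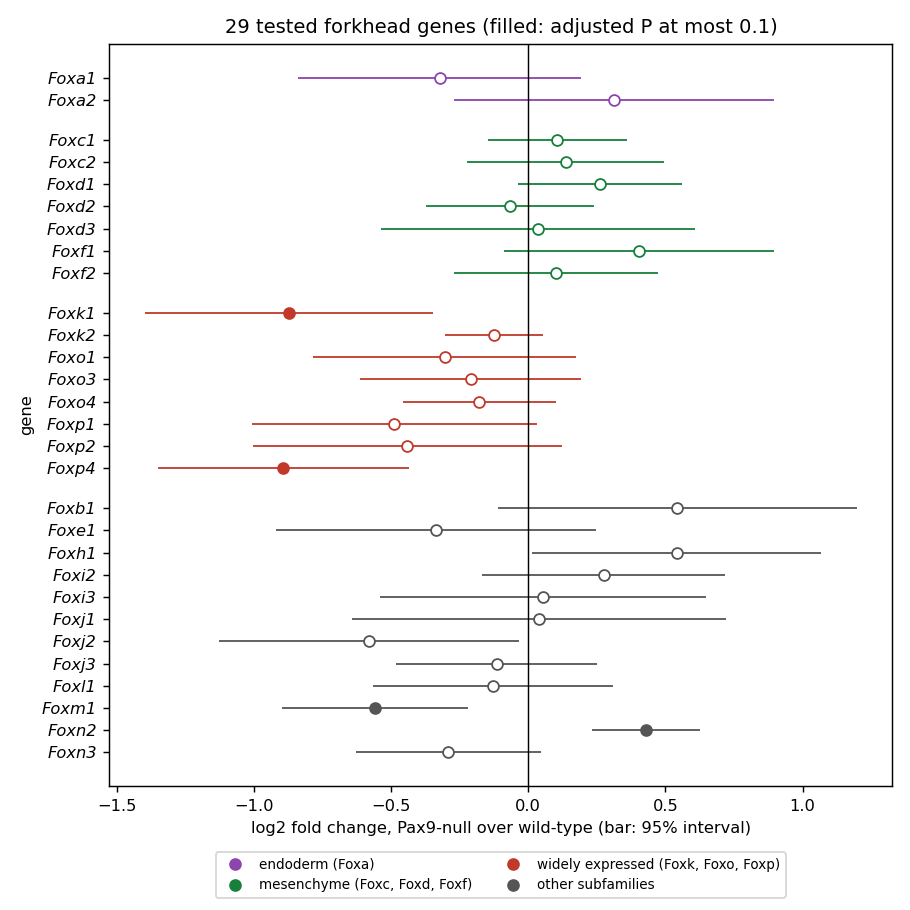
Log2 fold change (*Pax9*-null over wild-type) of the 29 tested forkhead genes on the x axis, by subfamily group, with bars for the 95% interval from limma and filled points for an adjusted P of at most 0.1. All 8 *Foxk*, *Foxo* and *Foxp* points lie below 0, and 6 of the 7 mesenchyme points lie above it, with every interval of the mesenchyme genes crossing 0.

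Neither gene of the endoderm group was called, where 26.7% of all genes were. *Foxa2*, an activator of the gut endoderm and floor plate, was at 1.91, 2.12 and 2.004 log2 RPKM in null replicates 1 to 3 and at 1.17, 2.22 and 1.71 in wild-type replicates 1 to 3. The lowest and the highest of these libraries were both wild-type, and the 3 null libraries lay between them. The difference was 0.31 (95% interval −0.27 to 0.90, limma adjusted *P* of 0.399). Without wild-type replicate 2 it was 0.57 with an adjusted *P* of 0.0984 by limma, and without wild-type replicate 1 it was 0.05 (0.89). *Foxa1*, its close relative, which lies at chr12:57540628-57546916, was at 0.10, 0.14 and −0.29 in null and 0.46, 0.44 and 0.02 log2 RPKM in wild-type libraries. Null replicate 3 was the lowest, and the genotypes overlapped. The difference was −0.32 (95% interval −0.84 to 0.19, limma adjusted *P* of 0.328), on 30 to 55 reads per library. The summed level of 7 pharyngeal endoderm markers was 251 to 316 RPKM in null and 230 to 284 RPKM in wild-type libraries. None of the 7 was called, with log2 fold changes from −0.74 for *Pax1* (limma adjusted *P* of 0.101) to 0.26 for *Sox2* (0.378). Of 7 floor plate and neural tube markers tested, *Ntn1* (−0.64, limma adjusted *P* of 0.0166) and *Spon1* (−0.71, 0.0588) were called lower. The 7 did not move together, with log2 fold changes from −0.71 for *Spon1* to 0.58 for *Olig2* (0.25) and a median of −0.05. The part of these markers in the *Foxa2* values was not tested.

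The members of this group sat at different levels. Per length, *Foxa2* averaged 4.04 RPKM in null and 3.39 RPKM in wild-type embryos, and *Foxa1* 0.996 and 1.25 RPKM. The log2 level of *Foxa1* minus that of *Foxa2* was −2.03 ± 0.24 in null and −1.39 ± 0.59 in wild-type libraries (SD, n = 3), and these did not overlap. The exact permutation test gave a *P* of 0.1, the smallest that 3 against 3 libraries allow, and 0.36 after adjustment over the 18 pairs of genes within subfamilies. Of these 18 pairs, 5 did not overlap between genotypes.

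The 7 mesenchyme genes showed no call and no separation of the genotypes, where 26.7% of all genes were called and 41.9% did not overlap. Their log2 fold changes ran from −0.07 to 0.40, with a median of 0.11, and 6 lay above wild-type. *Foxc1*, which is needed in neural crest and mesoderm derived mesenchyme, was at 4.38, 4.34 and 4.03 log2 RPKM in null and 4.11, 4.19 and 4.13 in wild-type libraries. Its null libraries were both the highest and the lowest. The difference was 0.11, with a 95% interval of −0.15 to 0.36 (limma adjusted *P* of 0.514), on 759 to 954 reads. *Foxc2*, which acts beside *Foxc1* in the arch arteries, was at 2.50, 2.70 and 2.37 in null and 2.51, 2.53 and 2.13 log2 RPKM in wild-type libraries. Wild-type replicate 3 was lowest, and the difference was 0.14 (95% interval −0.22 to 0.49, limma adjusted *P* of 0.56).

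The *Foxd* genes differed among themselves. *Foxd1*, a gene of facial and kidney mesenchyme, was at 4.004, 3.72 and 3.85 log2 RPKM in null and 3.36, 3.72 and 3.71 in wild-type libraries. Wild-type replicate 1 stood below the rest, and the difference was 0.26 (95% interval −0.04 to 0.56, limma adjusted *P* of 0.188). *Foxd2*, a gene of paraxial and facial mesenchyme, was at 1.54, 1.45 and 1.64 in null and 1.58, 1.56 and 1.68 log2 RPKM in wild-type libraries. It was the only mesenchyme gene with a mean below wild-type, by −0.07 (95% interval −0.37 to 0.24, limma adjusted *P* of 0.753). *Foxd3*, a factor of early neural crest whose promoter held the Pax core, was at 0.40, 0.67 and 0.30 in null and −0.05, 0.73 and 0.57 log2 RPKM in wild-type libraries. The wild-type libraries again held both extremes, on 28 to 47 reads, and the difference was 0.04 (95% interval −0.54 to 0.61, limma adjusted *P* of 0.93). The log2 level of *Foxd1* minus that of *Foxd2* was 2.32 ± 0.13 in null and 1.99 ± 0.19 in wild-type libraries without overlap (exact permutation *P* of 0.1, 0.36 adjusted over 18 pairs).

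The *Foxf* genes mark mesenchyme next to endoderm. *Foxf1* was at 3.54, 4.20 and 3.56 log2 RPKM in null and 3.61, 3.44 and 3.04 in wild-type libraries. Null replicate 2 stood above the rest and wild-type replicate 3, the library with few heart and smooth muscle transcripts, was lowest. The difference was 0.40 (95% interval −0.09 to 0.89, limma adjusted *P* of 0.214). It was 0.19 without null replicate 2 and 0.24 without wild-type replicate 3, and the adjusted *P* ran from 0.167 to 0.489 over the 6 fits that left out 1 library. *Foxf2*, which is needed for the palate, was at 1.57, 1.87 and 1.54 in null and 1.41, 1.53 and 1.74 log2 RPKM in wild-type libraries. Null replicate 2 was highest and wild-type replicate 1 lowest, and the difference was 0.10 (95% interval −0.27 to 0.47, limma adjusted *P* of 0.687). Summed markers of neural crest mesenchyme were at 110 to 117 RPKM in null and 105 to 117 RPKM in wild-type libraries. Of these 8 markers, *Twist1* was called higher (0.35, limma adjusted *P* of 0.0399) and *Sox10* lower (−0.59, 0.0828), with a median of −0.18. Their part in the mesenchyme values was not tested.

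**Figure D2:**
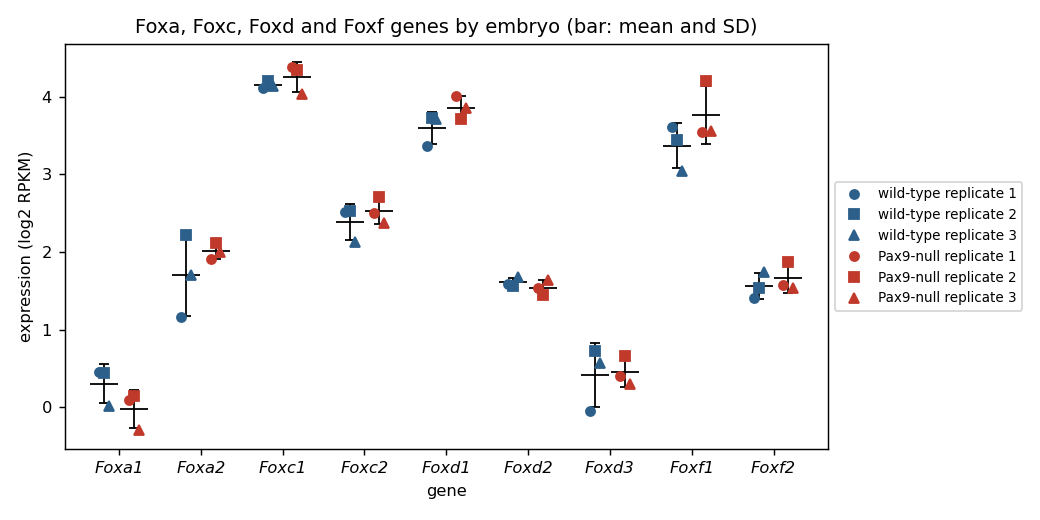
Log2 RPKM (y axis) of each *Foxa*, *Foxc*, *Foxd* and *Foxf* gene in the 3 *Pax9*-null and the 3 wild-type libraries, with a point per library and a bar for the mean and SD. The genotypes overlap in all 9 genes, from *Foxa1* near 0 to *Foxc1* above 4.

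All 8 widely expressed genes had a lower mean in null embryos, with log2 fold changes of −0.89 to −0.13 and a median of −0.37. Of these, 2 were called lower and 3 did not overlap between genotypes, where 12.0% of all genes were called lower and 20.1% did not overlap and were lower. Wild-type replicate 1, the library with the most endothelial marker RNA, was the highest in all 8. This was not confined to the group. The same library was the highest in 13 and the lowest in 8 of all 29 tested forkhead genes. Among the 12 of other subfamilies it was the highest in 4 and the lowest in 4. The part of its make-up in this was not tested. Of the 6 endothelial markers, 2 were also called lower, *Cdh5* (−0.67, limma adjusted *P* of 0.0735) and *Tie1* (−0.74, 0.082), with a median of −0.48 over the 6. The median deviation of the 8 widely expressed genes from their own means was 0.49 in wild-type replicate 1 and 0.05 and 0.06 in wild-type replicates 2 and 3. It was −0.26, 0.01 and −0.27 in null replicates 1 to 3. All 8 remained below wild-type with any 1 library left out, and the median then ran from −0.47 to −0.19, the latter without wild-type replicate 1.

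*Foxp4*, a repressor of the foregut and heart, was at 1.46, 2.10 and 2.16 log2 RPKM in null and 2.91, 2.69 and 2.80 in wild-type libraries. The genotypes did not overlap, and null replicate 1 was lowest. The mean was 1.90 ± 0.39 in null against 2.80 ± 0.11 in wild-type embryos (SD, n = 3). It fell by 0.89 on the log2 scale (SE 0.20, limma adjusted *P* of 0.0417), to 53.9% of wild-type, on 156 to 468 reads. None of its exon bases are shared with another gene, and its promoter held 2 GC boxes in the stretch printed above. Its adjusted *P* was 0.119 without null replicate 3 by limma, and at most 0.0934 in the other 5 such fits.

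The other *Foxp* genes were not called. *Foxp1*, needed in heart and blood development, had a log2 fold change of −0.49 (limma adjusted *P* of 0.162), and *Foxp2*, known for its part in brain and lung, of −0.44 (0.232). With wild-type replicate 2 left out, limma gave *Foxp2* an adjusted *P* of 0.0689. With wild-type replicate 1 left out, *Foxp2* was at −0.21 (0.534) and *Foxp1* at −0.27 (0.357). Summed over the 3 genes, the level was 9.29, 12.2 and 10.2 RPKM in null and 20.1, 13.9 and 15.4 RPKM in wild-type libraries. All 3 null sums were below all wild-type sums (exact permutation *P* of 0.1, 0.32 adjusted over 16 subfamily sums, of which 5 did not overlap), and the mean was 64.1% of wild-type.

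The *Foxk* genes lay far apart in level. *Foxk1*, a repressor of autophagy genes, was at 0.91, 1.51 and 0.86 log2 RPKM in null and 2.27, 1.75 and 1.88 in wild-type libraries. All null libraries lay below all wild-type ones. The mean was 1.10 ± 0.36 against 1.97 ± 0.27 (SD, n = 3), and it fell by 0.87 on the log2 scale (SE 0.23, limma adjusted *P* of 0.0508), to 54.6% of wild-type. The adjusted *P* was 0.186 without null replicate 1, 0.143 without null replicate 3 and 0.103 without wild-type replicate 1 by limma, so that the call was kept in 3 of 6 such fits. *Foxk2* was the most abundant forkhead gene in both genotypes, at 4.80, 4.77 and 4.79 in null and 4.99, 4.84 and 4.90 log2 RPKM in wild-type libraries. The genotypes did not overlap, but the difference was −0.13 (95% interval −0.30 to 0.05, limma adjusted *P* of 0.28). The log2 level of *Foxk1* minus that of *Foxk2* was −3.69 ± 0.38 in null and −2.94 ± 0.19 in wild-type libraries (exact permutation *P* of 0.1, 0.36 adjusted over 18 pairs).

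The 3 *Foxo* genes, whose proteins are excluded from the nucleus by AKT, were not called. Log2 fold changes were −0.31 for *Foxo1*, −0.21 for *Foxo3* and −0.18 for *Foxo4*, with limma adjusted *P* values of 0.319 to 0.415. Their summed level was 20.9, 27.0 and 22.4 RPKM in null and 30.03, 25.9 and 24.5 RPKM in wild-type libraries, and these overlapped.

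Among the other subfamilies, 12 genes were tested, 6 above and 6 below wild-type. *Foxn2*, a factor whose role in the arches is little known, was the only forkhead gene called higher. It was at 4.10, 3.99 and 4.09 log2 RPKM in null and 3.59, 3.71 and 3.60 in wild-type libraries. Replicates lay close together and the genotypes did not overlap. The mean was 4.06 ± 0.06 against 3.63 ± 0.06 (SD, n = 3), a rise of 0.43 (SE 0.08, limma adjusted *P* of 0.0343), on 1120 to 1467 reads. The adjusted *P* was 0.15 without null replicate 1 and 0.128 without null replicate 3 by limma. Its relative *Foxn3*, a checkpoint repressor, had a log2 fold change of −0.29 (limma adjusted *P* of 0.193), and *Foxn2* minus *Foxn3* was 0.83 ± 0.23 in null and 0.11 ± 0.27 in wild-type libraries (exact permutation *P* of 0.1, 0.36 adjusted over 18 pairs).

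*Foxm1*, the driver of mitotic genes, was at 2.71, 2.92 and 2.82 log2 RPKM in null and 3.62, 3.10 and 3.42 in wild-type libraries. The genotypes did not overlap, with wild-type replicate 1 highest. It fell by 0.56 (SE 0.15, limma adjusted *P* of 0.0518) from 3.38 ± 0.26 to 2.82 ± 0.10 (SD, n = 3), on 437 to 897 reads. Of its exon bases 2.5% are shared with genes on the same strand. The adjusted *P* was 0.188 without null replicate 1 and 0.136 without null replicate 3 by limma.

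*Foxj2* and *Foxh1* did not overlap between genotypes but were not called. *Foxj2*, a widely expressed activator, was at −0.32, −0.00 and −0.50 log2 RPKM in null and 0.62, 0.07 and 0.22 in wild-type libraries, a difference of −0.58 (limma adjusted *P* of 0.125). *Foxh1*, the partner of SMAD proteins in Nodal signalling, was at 1.19, 1.24 and 1.44 in null and 0.78, 1.14 and 0.32 log2 RPKM in wild-type libraries. Its difference was 0.54 (limma adjusted *P* of 0.135) on 20 to 41 reads, and this *P* was 0.0662 when wild-type replicate 2 was left out. The difference was 0.33 (limma adjusted *P* of 0.299) when wild-type replicate 3 was left out. The remaining 8 genes of these subfamilies overlapped, with log2 fold changes from −0.34 for *Foxe1*, a thyroid factor, to 0.54 for *Foxb1*, a neural tube factor, and limma adjusted *P* values of 0.193 to 0.937. Of the exon bases of *Foxb1*, 14.0% lie under a gene on the opposite strand, and counting did not use strand.

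**Figure D3:**
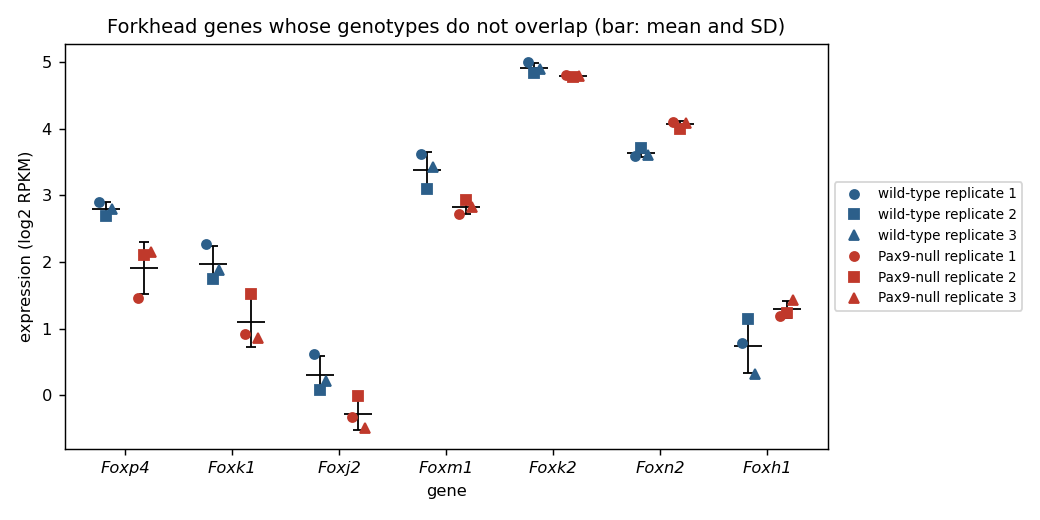
Log2 RPKM (y axis) of the 7 forkhead genes whose genotypes do not overlap, with a point per library and a bar for the mean and SD. *Foxn2* and *Foxh1* lie higher and *Foxp4*, *Foxk1*, *Foxm1*, *Foxk2* and *Foxj2* lower in the 3 *Pax9*-null than in the 3 wild-type libraries.

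The order of levels was led by *Foxk2* at 30.1 ± 1.65 RPKM in wild-type embryos (SD, n = 3), followed by *Foxc1* at 17.7 ± 0.54, *Foxo4* at 17.2 ± 1.24, *Foxn2* at 12.4 ± 0.56 and *Foxd1* at 12.2 ± 1.63 RPKM. In null embryos *Foxk2* was at 27.5 ± 0.31, *Foxc1* at 19.1 ± 2.41 and *Foxn2* at 16.7 ± 0.67 RPKM. In wild-type embryos 25 of the 29 neighbouring pairs in this order overlapped in their libraries. *Foxk2* was apart from *Foxc1*, and *Foxo4* from *Foxn2*. *Foxp4* was at 6.96 ± 0.52 RPKM in wild-type and 3.83 ± 0.95 RPKM in null embryos.

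Fold changes varied with transcript length and GC content in the whole data set, and the forkhead groups differ in length. The lengths behind the values, worked back from them, were 2324 to 3953 bases for the mesenchyme and 3485 to 16346 bases for the widely expressed genes. They were shorter than in GENCODE M21 for *Foxc1* (3953 against 5844 bases), *Foxd1* (2462 against 5064) and *Foxn3* (4651 against 11501), so that by annotation the groups overlap more. Spearman's rho between log2 fold change and length was −0.62 over the 29 forkhead genes and −0.41 over 13524 genes, and with GC content it was 0.11 and −0.44, given as a description, since genes in the same libraries are not independent. Forkhead genes of 2000 to 3000 bases had a median log2 fold change of 0.12 (12 genes), against 0.03 for all genes of that length, and those of 4000 to 6000 bases had −0.56 (5 genes) against −0.07. When the trends with length and GC content were removed from each library, the median was 0.40 for the mesenchyme and −0.16 for the widely expressed genes, and 5 of the 8 widely expressed genes stayed below wild-type. *Foxn2* then had a log2 fold change of 0.38 (limma adjusted *P* of 0.0931). *Foxp4* was at −0.51 (0.127), *Foxk1* at −0.38 (0.223) and *Foxm1* at −0.21 (0.28), and none of the 3 was called. Over all genes, 811 were called with the trends removed, against 3611 before.

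**Figure D4:**
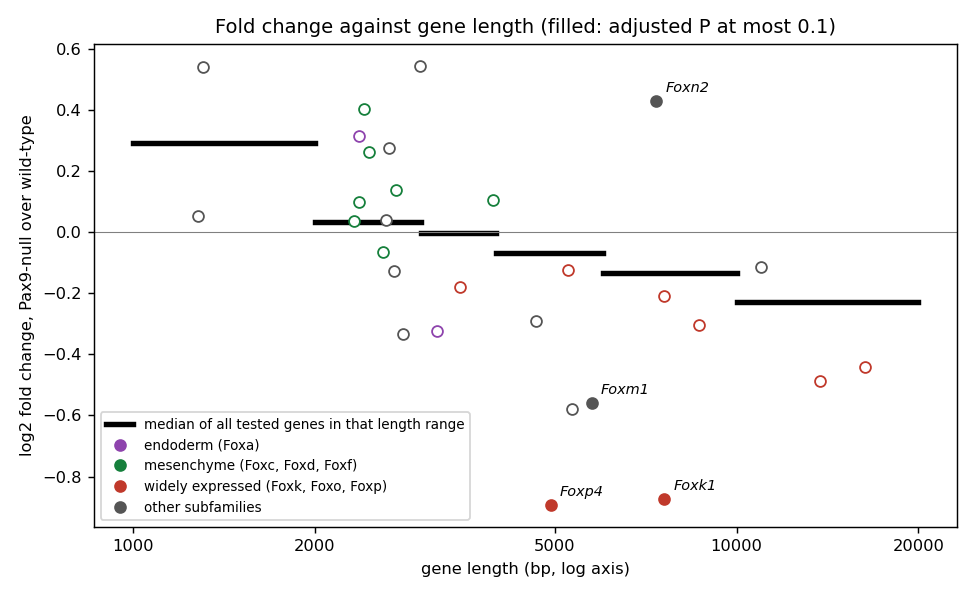
Log2 fold change (y axis) of forkhead genes against transcript length in bases on a log axis, with the median of all tested genes in 6 length classes drawn as bars, the first class being under 2000 and the last 10000 bases or more. The medians of all genes run from 0.29 in the shortest to −0.23 in the longest class. The forkhead medians run from 0.30 to −0.44, are lowest (−0.56) at 4000 to 6000 bases, and scatter widely around the bars.

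**Figure D5:**
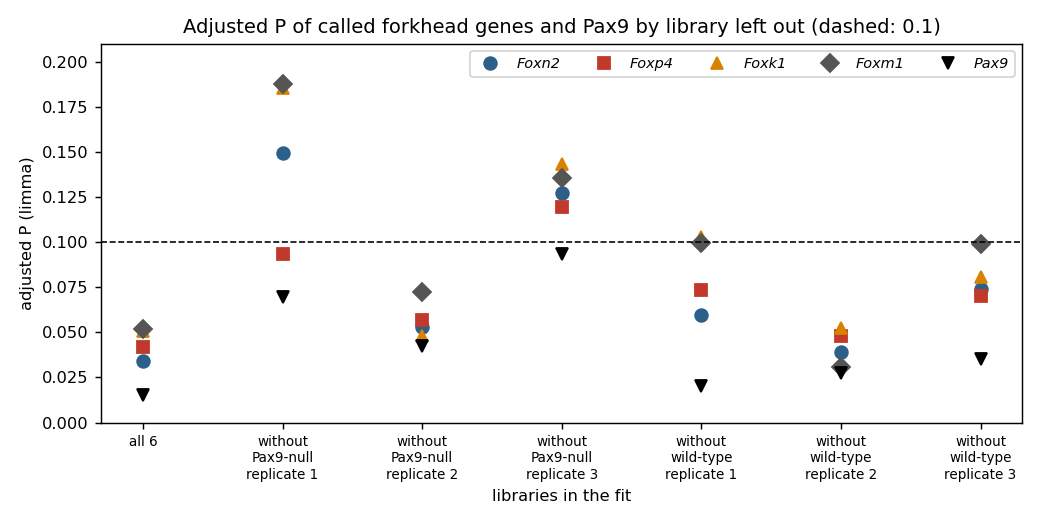
Adjusted P (limma, y axis) of the 4 called forkhead genes and *Pax9* with all 6 libraries and in the 6 fits that left out 1 library, with a dashed line at 0.1. *Foxp4* stays under the line in 5 fits, *Foxn2* and *Foxm1* in 4 and *Foxk1* in 3, and without null replicate 3 all 4 forkhead genes lie above it.

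Genes that act with or downstream of forkhead proteins were read in the same fit, from lists of partners, regulators and targets. Their counts stand against 26.7% of all genes called, 14.7% higher and 12.0% lower. Of 5 tested Groucho corepressors, none was called, and the largest difference was in *Tle3* (−0.36, limma adjusted *P* of 0.126). Of 15 genes of insulin and AKT signalling, *Igf1r*, a growth factor receptor, fell (−0.64, 0.0638), and of 14 FoxO targets *Cdkn1b*, which encodes a cell cycle inhibitor, rose (0.37, 0.065). The medians of these 3 lists were −0.06, −0.07 and 0.13, and each list held a smaller share of called genes than all genes did.

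Of 17 genes of the FoxM1 and MuvB mitotic programme, 3 fell and 2 rose, a share close to the 26.7% of all genes. The largest changes among the called genes were in *Kif20a*, a kinesin of cytokinesis (−0.37, limma adjusted *P* of 0.0923), *Lin9*, a MuvB subunit (0.36, 0.084), *Plk1*, a mitotic kinase (−0.34, 0.0715), and *Cdc20*, an activator of the anaphase-promoting complex (−0.30, 0.0633). The median was −0.11. Of 12 hedgehog pathway genes, 4 fell and none rose, where 12.0% of all genes were called lower: the transcription factors *Gli2* (−0.81, limma adjusted *P* of 0.0431) and *Gli3* (−0.59, 0.0832), their inhibitor *Sufu* (−0.56, 0.0571) and the co-receptor *Cdon* (−0.39, 0.0798), with a median of −0.31. *Foxf1*, named above as a target of hedgehog signals, was not called, and a link between its level and these genes was not tested.

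Of 6 genes of the Nodal and FoxH1 pathway, *Smad3*, a signal transducer (−0.48, limma adjusted *P* of 0.0407), and *Acvr2b*, a receptor (−0.39, 0.0818), fell, with a median of −0.05. Of 7 FoxK cofactors, 3 fell, beside the same 12.0% of all genes called lower: *Hcfc1*, a chromatin scaffold (−0.98, limma adjusted *P* of 0.0387), *Asxl1*, a partner of BAP1 (−0.59, 0.0595), and *Sin3a*, a corepressor (−0.36, 0.0823), with a median of −0.18. With the length and GC trends removed, *Cdc20* (−0.27, limma adjusted *P* of 0.0973) and *Hcfc1* (−0.52, 0.098) stayed called lower. None of the 4 hedgehog genes that fell stayed called, with adjusted *P* values of 0.211 to 0.569 by limma, and *Gas1*, a hedgehog co-receptor named after its values were seen, was called higher (0.49, 0.0464). No gene of the other 4 lists was then called, in a fit that called 811 genes over all. Without null replicate 1, or without null replicate 3, no gene of the 7 lists was called by limma. Those fits called few genes of any kind, 301 and 175 over all, against 3611 with all 6 libraries.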

How the data were processed

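The authors trimmed reads with Trimmomatic 0.32, aligned them with STAR 2.5.1a to GRCm38 and counted them on Ensembl genes with featureCounts 1.5.1, as the submitters' processing notes list. For STAR, the methods of the study give a different version. The methods name default settings, at which strand is not used and reads on 2 genes are not assigned. The deposited table gives log2 RPKM as the authors made it, and a prior count of 0.5 was worked out from the values. Reads behind each value were recovered as whole numbers within 0.05 reads for 82.7% of values at GENCODE M21 lengths, and the rest by a search of lengths. The labels describe sorted cells and another library kit, whereas the methods of the study describe dissected whole tissue and a strand-specific kit, which is followed here. Reads were sub-sampled by the authors before counting, so that depths are alike.

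Groups came from the sample labels. Log2 RPKM was tested in limma 3.58.1 (R 4.3.3), two-sided, with a variance trend, for rows averaging 0.5 RPKM or more, at an adjusted *P* of at most 0.1, after tests on simulated data. No label names litters, so *P* values measure only the spread between these libraries. The libraries were not treated as paired by their numbers. The correlation of deviations was −0.02, −0.17 and 0.26 for the 3 pairs, which cannot settle whether embryos shared litters. The members and lists were chosen with earlier results of these data known. Genes named are all tested Foxa, Foxc, Foxd and Foxf genes, other members called or not overlapping, *Pax9*, and in each list the called genes, up to 4 by size, or else the largest. Marker genes and *Gas1* were named after their values were seen. Alternatives were other pseudocounts, low-value filters and thresholds, median centring, quantile normalization, removal of length and GC trends by splines, a replicate block, no variance trend, library weights and each library left out. The member that did not pass the filter is not reported here. Promoters came from RefSeq (GRCm38.p6).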

Additional observations from a re-analysis of the deposited data

How the results depend on the processing

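The tests rest on 3 embryos per genotype, and 0.1 is the smallest exact *P* for a single gene. Forkhead genes with under 60 reads, such as *Foxa1*, *Foxd3* and *Foxh1*, carry more counting error than *Foxn2* or *Foxk2*.

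The number of genes called was 3611 in all and 4 forkhead genes. It was 811 and 1 after trends with length and GC content were taken out, 1335 and 2 at an adjusted *P* of at most 0.05, and 1377 and 3 with a replicate block. Without 1 library it ran from 175 to 3578 and from 0 to 7, with no forkhead gene called without null replicate 3, 1 without null replicate 1 and 7 without wild-type replicate 2. The forkhead median was −0.12 and 0.15 with the trends removed, and −0.13 to −0.07 without 1 library. The mesenchyme median was 0.11, 0.40 with the trends removed and 0.05 to 0.21 without 1 library. It was 0.20 at a mean of at least 5 RPKM, which tests only *Foxc1*, *Foxc2*, *Foxd1* and *Foxf1* of the 7. The widely expressed median was −0.37, −0.16 with the trends removed, −0.21 at 5 RPKM, which tests 5 of the 8, −0.25 at a pseudocount of 1 and −0.27 with library weights. The replicate block left *Foxp4*, *Foxk1* and *Foxn2* called and gave *Foxm1* an adjusted *P* of 0.105 by limma, and only replicate 3 correlated best with its own number. *Foxj2* had an adjusted *P* of 0.0998 by limma without a variance trend. *Pax9* was called in every alternative that tested it. The causes of these shifts were not tested. No alternative reversed the direction of the 4 called forkhead genes or *Pax9*.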
